A study of Mus musculus with 16 samples.

Results

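Open chromatin was compared between the embryonic stages E13.5 and E12.0 in sorted progenitors of the organ of Corti of the mouse. This organ is the sensory epithelium of the cochlea. It was measured by ATAC-seq, in which the Tn5 transposase cuts accessible DNA. Cells were purified by FACS from the cochlea, as Sox2-GFP+ cells at E12.0 and as p27-GFP+ cells at E13.5. Age and reporter therefore changed together and cannot be told apart in any difference below. Each stage had 3 ATAC libraries among the 16 samples of the series, which also hold RNA-seq and CUT&RUN of the same sorted populations. Whether replicates are from different litters is not given, so any test reflects only how these libraries vary, which may be technical.

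Each library was deposited as a list of peaks, places where cuts piled up over the local background. The intervals of the 6 lists on chromosomes 1 to 19 and X were merged into 335268 regions, and a library held a region when 1 of its intervals lay in it. A region was called at E13.5 only when every E13.5 library held it and none of E12.0 did, and at E12.0 only in the reverse case. The strength of a peak is its fold over background in the authors' list, which was used only as a rank within that list. All coordinates are of the build GRCm38 (mm10).

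Chromatin opens where nucleosomes are displaced, mostly at the promoters of active genes and at distal enhancers. Promoters with many CG dinucleotides are often open in many cell types, whereas distal elements differ more between cell types and stages. Sox2 is a transcription factor needed to specify the prosensory cells of the cochlea. Cdkn1b encodes p27Kip1, an inhibitor of cyclin-dependent kinases that marks the prosensory domain as its cells leave the cell cycle. Yap1 encodes a co-activator that works with the DNA-binding Tead factors and is restrained by the Hippo kinases.

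The promoters below show the contrast that the lists hold: a pair open in every library at both stages, and a pair open in the E13.5 lists only. Each is the 250 bases before the RefSeq start, 5′ to 3′ on the strand of the gene, from the RefSeq table of GRCm38.p6. The Cdkn1b stretch lies at chr6:134920151-134920400 (plus strand) and that of Yap1 at chr9:8004597-8004846 (minus strand). The Samd9l stretch lies at chr6:3399572-3399821 (minus strand) and that of Gfra1 at chr19:58455399-58455648 (minus strand). Capitals mark letter matches on either strand to CATTCC (Tead), GGGCGG (Sp/Klf), CCAAT (NF-Y) or CAGCTG (an E-box).
Cdkn1b: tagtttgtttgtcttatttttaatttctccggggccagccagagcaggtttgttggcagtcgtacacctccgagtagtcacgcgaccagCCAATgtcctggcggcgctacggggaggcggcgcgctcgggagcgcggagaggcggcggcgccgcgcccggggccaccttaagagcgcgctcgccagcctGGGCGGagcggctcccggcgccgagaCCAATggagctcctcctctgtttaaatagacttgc
Yap1: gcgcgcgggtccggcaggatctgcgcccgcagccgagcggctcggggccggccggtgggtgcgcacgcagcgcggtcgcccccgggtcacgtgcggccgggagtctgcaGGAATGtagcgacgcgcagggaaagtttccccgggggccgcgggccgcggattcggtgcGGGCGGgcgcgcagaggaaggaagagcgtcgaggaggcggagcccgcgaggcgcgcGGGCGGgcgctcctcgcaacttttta
Samd9l: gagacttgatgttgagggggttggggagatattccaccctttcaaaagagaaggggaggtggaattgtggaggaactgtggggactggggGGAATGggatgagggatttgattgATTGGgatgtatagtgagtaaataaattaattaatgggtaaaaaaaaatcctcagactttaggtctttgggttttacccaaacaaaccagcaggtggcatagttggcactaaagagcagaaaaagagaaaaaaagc
Gfra1: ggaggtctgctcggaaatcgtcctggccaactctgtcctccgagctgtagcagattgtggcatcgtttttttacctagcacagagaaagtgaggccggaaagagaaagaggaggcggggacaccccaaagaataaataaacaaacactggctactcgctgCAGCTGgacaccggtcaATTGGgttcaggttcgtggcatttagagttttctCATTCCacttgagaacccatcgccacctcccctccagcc

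In the 300-base windows around these starts, from 250 bases before to 50 after, the count of CG dinucleotides was 30 for Cdkn1b and 49 for Yap1. It was 1 for Samd9l, which encodes an interferon-inducible protein, and 12 for Gfra1, which encodes a co-receptor for GDNF. The CATTCC letters occurred in the windows of Yap1, Samd9l and Gfra1. Of all 32619 promoter windows 14.6% hold them, so a match describes the letters only.

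The lists of E13.5 were longer than those of E12.0. They held 212905, 208039 and 226474 peaks in replicates 1 to 3, against 130561, 143721 and 112548 at E12.0. The means were 215806 ± 9554 and 128943 ± 15649 (SD, n = 3 each), a ratio of 1.67 with groups that did not overlap (exact permutation test, two-sided, p = 0.1, the smallest that 3 against 3 can give). Peaks covered 62.4, 60.1 and 65.2 Mb at E13.5 and 32.0, 38.9 and 27.3 Mb at E12.0 (ratio of means 1.91, exact permutation p = 0.1). The median interval was 278 to 290 bp long at E13.5 and 193 to 233 bp at E12.0. Peaks at −log10 q of 2 or more made up 81.9 to 88.3% of the E13.5 lists and 49.2, 72.3 and 49.2% of the E12.0 lists. The number of sequenced fragments is unknown from peak lists, and its part in these differences was not tested.

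Agreement between libraries differed by stage. Of the regions held by either of a pair of libraries, both held a share of 0.543 to 0.573 within E13.5, of 0.233 to 0.288 within E12.0 and of 0.246 to 0.399 across stages. At the regions held by all 6, the rank correlation of the folds was 0.877 to 0.896 within E13.5, 0.694 to 0.758 within E12.0 and 0.510 to 0.727 across stages. The highest shares across stages, 0.379 to 0.399, were those of E12.0 replicate 2. E12.0 replicates 1 and 3 shared 0.233 with each other, 0.276 and 0.288 with replicate 2, and 0.246 to 0.263 with E13.5 libraries.

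Most regions called at a single stage were of E13.5. Of the 335268 regions, 22137 (6.6%) were called at E13.5 only, 156 (0.0465%) at E12.0 only, and 33757 (10.1%) were held by all 6 libraries. Of the 34563 regions held by all 3 E12.0 libraries, 97.7% were also held by all 3 E13.5 libraries. Of the 93328 regions held by all 3 E13.5 libraries, 36.2% were in all 3 E12.0 libraries, 18.6% in 2 of them, 21.5% in 1 and 23.7% in none. Most regions belonged to few libraries: 114095 (34.0%) were held by 1 E12.0 library alone and 79398 (23.7%) by 1 E13.5 library alone.

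**Figure D1:**
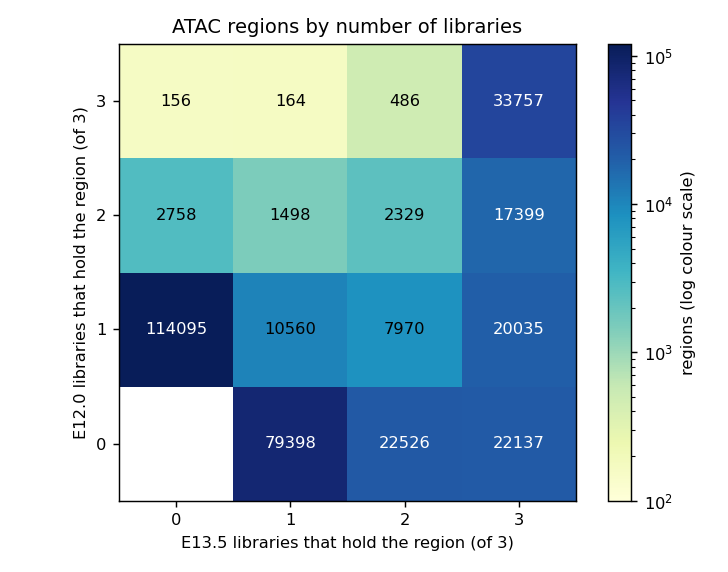
ATAC regions counted by how many E13.5 libraries (x axis, 0 to 3) and E12.0 libraries (y axis, 0 to 3) hold them, with a log colour scale. The column of 3 E13.5 libraries holds 22137, 20035, 17399 and 33757 regions from none to 3 E12.0 libraries, while the row of 3 E12.0 libraries falls to 156 regions with no E13.5 library.

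The size of that split depended on how deep each list was read. With every list limited to its 112548 strongest peaks, the length of the shortest list, 6933 regions were called at E13.5 only and 479 at E12.0 only, a ratio of 14.5 against 142 with the lists as deposited. With the strongest 50000 peaks of each list the counts were 3050 and 1110, with the strongest 20000 they were 1533 and 833, and with the strongest 10000 they were 865 and 686. More regions were called at E13.5 only in each of these settings, and the ratio was 2.75, 1.84 and 1.26 as fewer peaks were taken. Leaving out 1 E12.0 library gave 24925 to 36374 regions at E13.5 only, the highest without replicate 2, and 981 to 1253 at E12.0 only, the highest without replicate 3. Leaving out 1 E13.5 library gave 28301 to 32460 and 205 to 216. With 1 library left out a call asks for 1 library fewer. The rule is then easier to pass, which by itself tends to raise these counts.

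**Figure D2:**
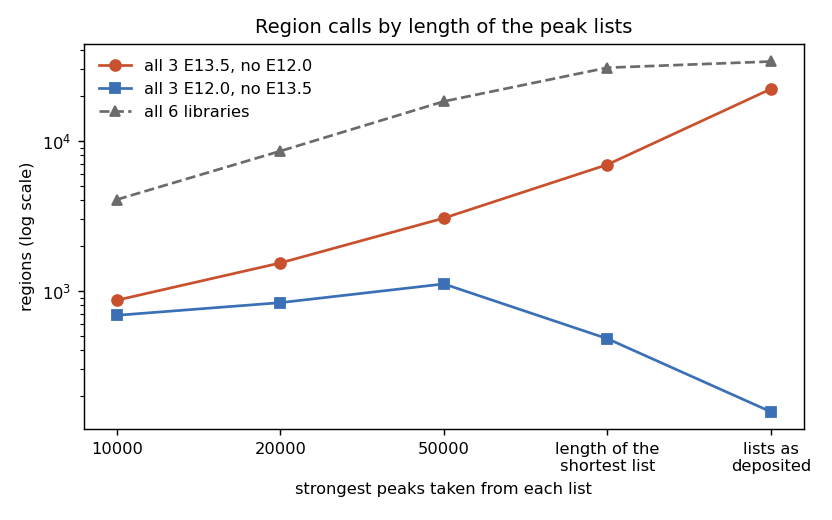
Regions (y axis, log scale) called at E13.5 only, at E12.0 only and in all 6 libraries, by the number of strongest peaks taken from each list (x axis). The lines for the single stages lie close at 10000 peaks (865 and 686) and far apart with the lists as deposited (22137 and 156).

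The regions called at E13.5 only were mostly outside promoters and of middle strength. Their median width was 434 bp, against 895 bp for regions in all 6 libraries and 222 bp over all regions. A promoter window was overlapped by 1.47% of them (1.80% with equal-length lists and 17.5% with the strongest 10000 peaks), by 32.6% of the regions in all 6 and by 4.41% of all regions. More than 50 kb from any protein-coding gene lay 32.5% of them, against 9.81% of the regions in all 6 and 25.7% of all regions. Their median fold stood at percentiles 49.0, 49.3 and 54.8 of the 3 E13.5 lists, whereas regions in all 6 stood at 88.8 to 89.3 there. Only 158 of the 22137 stood at the 90th percentile or above in all 3 E13.5 lists. Chromosome X had the highest share of its regions called at E13.5 only (9.91%) and chromosome 7 the lowest (4.48%).

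H3K27ac, a histone mark of active promoters and enhancers, was deposited as CUT&RUN peak lists of 2 libraries per stage. Of the regions called at E13.5 only, 26.4% and 8.80% overlapped a peak of the E13.5 H3K27ac replicates 1 and 2, and 18.4% and 10.4% a peak of the E12.0 replicates 1 and 2. The shares in the E13.5 pair lay on both sides of those in the E12.0 pair, and the spread between replicates of the mark was larger than the difference between stages. Regions in all 6 had the mark at 65.2% and 17.4% in the E13.5 lists and 51.8% and 33.1% in the E12.0 lists, and all regions at 16.6% and 4.97% and at 13.47% and 7.79%. With equal-length lists the regions called at E13.5 only had it at 40.5% and 12.6% in the E13.5 lists and 25.04% and 15.3% in the E12.0 lists. With the strongest 10000 peaks these shares were 85.5, 34.7, 73.4 and 52.3%. Tead peaks, mapped by CUT&RUN at E12.0 alone, overlapped 0.885% and 11.6% of the regions called at E13.5 only and 3.58% and 43.3% of those in all 6, by library. Over all regions the shares were 0.883% and 9.76%, so the regions called at E13.5 only were near that background. None of the 6 CUT&RUN lists had a peak in 55.7% of the regions called at E13.5 only, 27.2% of those in all 6 and 74.1% of all regions.

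Within the regions called at E13.5 only the mark was more frequent at stronger ATAC peaks. In 4 classes from the weakest to the strongest, by the smallest of the 3 percentiles, the share with E13.5 H3K27ac in replicate 1 was 20.6, 20.6, 25.7 and 39.4%. In E13.5 replicate 2 it was 6.67, 7.19, 9.04 and 12.6%, in E12.0 replicate 1 it was 17.2, 16.9, 18.0 and 21.5%, and in E12.0 replicate 2 it was 7.85, 9.16, 10.6 and 14.5%. The increase was thus seen with the mark of both stages. The median width grew along the same classes from 372 to 565 bp, and a wider region overlaps a peak more often.

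The strongest regions called at E13.5 only, ranked by the smallest of the 3 percentiles, were led by chr11:14438030-14438577, with no gene within 50 kb. It stood at percentiles 99.6, 99.3 and 99.1 of the 3 lists and had no CUT&RUN peak. Another, chr17:62557077-62557947, lay 45010 bp from Efna5, an ephrin ligand of the Eph receptors, at percentiles 98.9, 98.7 and 99.9. It had H3K27ac peaks in both E13.5 lists and in neither E12.0 list. RNA of Efna5 was nevertheless lower at E13.5, at 27.3 against 102 CPM (read counts scaled to the library total). A region inside the span of Tbx15, a T-box factor, stood at percentiles 98.6, 99.2 and 98.5, and one inside Cyp7b1, an oxysterol hydroxylase, at 98.1, 98.6 and 99.9. Cyp7b1 RNA fell from 12.8 to 2.53 CPM. Eea1, an endosomal tethering protein 31936 bp from a region at percentiles 99.9, 98.3 and 98.5, rose in RNA from 14.4 to 27.8 CPM (edgeR adjusted p = 0.0407). Sec11c, near another, was not called, at 9.93 against 25.5 CPM. The values of these regions come from the ranking that chose them and are given as a description.

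The 156 regions called at E12.0 only spread over the E12.0 lists, with median folds at percentiles 50.1, 48.0 and 47.5. In all 3 lists 50 of them stood at the 50th percentile or above and 27 at the 90th or above. The first 10 stood at the 99.97th percentile or above in every E12.0 list, led by chr1:24612478-24613222, 24556 bp from Col19a1, and chr3:5860287-5860896, with no gene within 50 kb. Others lay inside Filip1l (chr16:57391278-57391743), Chl1 (chr6:103648994-103649360), Zc3h7a (chr16:11143906-11144370) and Cdk8 (chr5:146260922-146261422). No CUT&RUN peak lay in 8 of these 10 regions, nor in 133 of the 156 (85.3%).

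Of the 15 strongest peaks of each E12.0 list, 13, 7 and 12 lay in regions called at E12.0 only. The deposited E13.5 lists lacked 186, 212 and 217 peak numbers, among them 6, 6 and 5 of the first 15, while numbers in the E12.0 lists had no gap. Peaks on unplaced contigs stood only in the E12.0 lists. The lists were therefore filtered differently by stage before deposit, and the part of this in the strongest E12.0 regions was not tested.

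Promoters were mostly open at both stages. A library held the promoter of a gene when it held any of that gene's windows. Of the 17273 genes with a promoter window in the RefSeq table, 9926 (57.5%) had the promoter held by all 6 libraries. In 154 (0.892%) it was held by the 3 libraries of E13.5 and none of E12.0. In 2 (0.0116%) the reverse was seen. In 5271 genes no library held the promoter. The share of all 32619 windows held was 50.9, 50.3 and 50.7% in the E13.5 libraries and 44.2, 47.9 and 43.7% in the E12.0 libraries (exact permutation test, two-sided, p = 0.1).

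The windows open at E13.5 only had the base composition of closed promoters more than of open ones. Their median was 5 CG dinucleotides in 300 bases (467 windows), against 23 in the 13078 windows open in all 6 libraries, 3 in the 14364 held by none and 7 over all windows. Their median GC content was 49.3%, against 62.7, 46.3 and 53.0%. The Sp/Klf letters GGGCGG occurred in 18.0% of them, against 69.9% of the windows open in all 6, 8.08% of those held by none and 35.9% of all. The Sox letters ACAAAG occurred in 30.4%, against 12.3, 23.6 and 18.7%, and the AP-1 letters TGANTCA in 11.99%, against 3.82, 11.2 and 7.85%. The Tead letters CATTCC occurred in 16.7%, against 11.1, 17.1 and 14.6%. The differences between these shares, and the part of base composition in them, were not tested.

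Genes with a promoter open in all 6 libraries had a median RNA level of 23.0 TPM (a level scaled for gene length and library total) over the 4 RNA libraries, against 0.237 TPM where it was open at E13.5 only. In bulk RNA a change in the number of cells of a type and a change in RNA per cell cannot be told apart. Over all genes 3579 of 15982 (22.4%) were higher at E13.5 and 3761 (23.5%) lower (edgeR quasi-likelihood test, adjusted p under 0.05, 2 libraries per stage). Without E12.0 RNA replicate 1 these counts were 2341 and 2910. Of the 154 genes with a promoter open at E13.5 only, 55 had enough counts to be tested, 15 were higher and 9 lower. Of the 8867 tested genes whose promoter was open in all 6 libraries, 2004 were higher and 1974 lower. The share of either direction among the open-at-E13.5 genes was thus near that of all genes, with slightly more higher (27.3%) and fewer lower (16.4%).

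Samd9l joined a promoter open at E13.5 only with a rise in RNA, from 1.38 and 1.41 CPM to 12.2 and 18.9 CPM (log2 fold change 3.48 ± 0.57 SE, edgeR adjusted p = 0.000824). Its promoter window stood at percentiles 68.1, 54.1 and 65.7 of the E13.5 lists. Zfp984, a zinc-finger gene, rose from 0.413 and 0.471 to 6.33 and 9.41 CPM (log2 fold change 4.13 ± 0.75, edgeR adjusted p = 0.00154), with percentiles 71.8, 65.0 and 90.4. Gfra1 did the opposite: its window stood at percentiles 75.8, 80.2 and 68.3 while its RNA fell from 25.3 and 44.3 to 3.95 and 3.48 CPM (log2 fold change -3.23 ± 0.43, edgeR adjusted p = 0.000237).

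Postn, a secreted matrix protein of mesenchyme, likewise had a window open at E13.5 only and fell from 26.5 and 37.8 to 4.62 and 12.2 CPM. Gm6749 fell from 19.1 and 16.1 CPM to 0.0953 and 0. Grrp1, Gm14322 and Slc28a3 had no count at E12.0 and at most 2.42 CPM at E13.5. The calls of these 3 genes and of Stx19, at 5.50 and 3.06 against 0.0476 and 0.848 CPM, were each lost when either E12.0 RNA library was left out. The call of Rnase1, at 0.275 and 45.4 against 0.667 and 2.03 CPM, turned to a log2 fold change of 2.26 without E12.0 RNA replicate 2, so that library decides its direction.

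The labelled cell type was checked by the promoters of marker genes. Prosensory genes had a promoter open in all 6 libraries in 13 of 17, and epithelial genes in 9 of 11. Hair cell genes had it in 9 of 14, supporting cell genes in 8 of 16 and non-sensory genes in 6 of 10. The same held for 2 of 6 endothelial, 0 of 7 erythroid, 0 of 4 immune and 1 of 13 Hox promoters, against 57.5% of all genes. Mesenchyme had 4 of 10, neurons 5 of 10, glia 0 of 2 and melanocytes 2 of 5. Summed RNA counts of the endothelial list were 1 to 33 per library and of the immune list 19 to 87, of 9412326 to 19570946 counts in all. Scaled to these totals, the mesenchyme list summed to 1118 and 1112 CPM for E12.0, against 622 and 747 CPM for E13.5, and the melanocyte list to 10.8 to 47.4 CPM over the 4 libraries. The glia list, which includes Sox9 and Sox10, also expressed in otic epithelium, summed to 1789 and 2220 CPM, against 1380 and 1373 CPM. The neuronal list summed to 318 and 293 CPM, against 1074 and 1003 CPM, although of its 8 tested genes 1 was higher and 2 lower, with a median log2 fold change of -1.36. The part of such cells in the regions called at E13.5 only was not tested. Near neuronal genes 20 of 213 regions (9.39%) and near mesenchyme genes 16 of 206 (7.77%) were called at E13.5 only, against 6.6% of all regions.

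Cell cycle genes had promoters open at both stages and mostly lower RNA at E13.5. Every S-phase, G2/M and G1 gene with a window in the table had its promoter open in all 6 libraries (19 of 19, 21 of 21 and 12 of 12). RNA fell in 22 of 25 tested S-phase genes, 25 of 25 G2/M genes and 10 of 16 G1 genes, with median log2 fold changes of -1.98, -3.56 and -1.74 and no S-phase or G2/M gene higher. Cdk1, the kinase that drives mitosis, fell from 172 to 8.29 CPM (edgeR adjusted p = 1.58e-05) with 1 of its 13 regions called at E13.5 only and none of higher or lower rank. Cenpe, a kinetochore motor, fell from 174 to 14.4 CPM, with 4 of its 17 regions called at E13.5 only. Cdk6, a G1 kinase, fell from 98.4 to 15.19 CPM, with 6 of 44. Thus the promoters of these genes stayed in the lists of the stage at which their RNA was lower. Over all 10037 tested genes with a window, 8867 had the promoter open in all 6 libraries and 2145 (21.4%) were lower in RNA. Of these 2145 genes 1974 had the promoter open in all 6, so this state was not particular to cell cycle genes.

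Regions near the other gene lists were called at E13.5 only at shares around the 6.6% of all regions. The share was 5.67% for prosensory genes (36 of 635 regions), 5.11% for hair cell genes, 6.68% for supporting cell genes, 5.24% for the Notch pathway and 6.16% for Hippo components. It was 6.35% for Yap target genes, 6.37% for Hedgehog, 5.54% for BMP and TGF-beta, 4.92% for FGF and 3.21% for Wnt targets. Regions called at E12.0 only made up 0.0465% of all regions, so lists of this size would hold few or none by that share. The only 1 near these lists lay near Fgf9, a ligand counted in the FGF and non-sensory lists. Fgf9 RNA fell from 135 to 43.3 CPM (edgeR adjusted p = 0.00186). Within lists the genes with most regions called at E13.5 only were often long: Rbms3, over 1057 kb, had 10, and Gli3, a Hedgehog effector over 266 kb, had 11.

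Several genes with more than 1 such region rose in RNA. Slc1a3, a glutamate transporter of supporting cells, had 5 of 42 regions called at E13.5 only and rose from 182 to 469 CPM (edgeR adjusted p = 0.00126). Otogl, an otogelin-like protein of the acellular membranes, had 3 of 36 and rose from 17.0 to 147 CPM (edgeR adjusted p = 0.00164). Bmp7, a BMP ligand, had 5 of 55 and rose from 46.7 to 137 CPM (edgeR adjusted p = 0.000724). Others fell: Gli3 from 257 to 126 CPM, and Hes1, a Notch effector with 3 of 45, from 78.2 to 14.8 CPM.

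Over all tested genes the number of regions called at E13.5 only went with no steady change in RNA. Genes with none, 1, 2, 3 to 4, and 5 or more such regions were higher at E13.5 in 23.7, 22.6, 21.2, 18.6 and 23.5% of cases. They were lower in 21.2, 22.5, 20.1, 22.0 and 16.3%. The median gene span grew along these classes from 17.1 to 300 kb, so the number of regions also measured gene length.

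At the fixed loci, the region over the Sox2 promoter, chr3:34649193-34650647, was held by all 6 libraries. It stood at percentiles 92.6, 91.2 and 95.8 of the E12.0 lists and 83.5, 84.7 and 80.4 of the E13.5 lists, with no overlap. Its folds did overlap, at 6.80, 10.2 and 9.28 against 8.11, 7.20 and 7.22. Sox2 RNA rose from 36.9 and 39.4 to 152 and 169 CPM (log2 fold change 2.07 ± 0.25 SE, edgeR adjusted p = 0.000132). A weak region 1057 bp past the start was called at E13.5 only, at percentiles 7.33, 4.07 and 0.0879. The E12.0 cells were sorted by a reporter named for Sox2, and its part in the ATAC and RNA values at this locus was not tested.

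The region over the Yap1 promoter, chr9:8003373-8005189, was likewise in all 6 libraries and lower in rank, at percentiles 87.9, 93.5 and 93.0 against 77.2, 77.1 and 81.2. Yap1 RNA fell from 253 and 269 to 97.4 and 105 CPM (log2 fold change -1.37 ± 0.24, edgeR adjusted p = 0.0011). A pair of regions at this locus was called at E13.5 only. The stronger, chr9:7926058-7927012, lay 78061 bp past the start, beyond the far end of the gene. It had folds of 10.2, 8.89 and 12.3 and stood at percentiles 89.8, 90.2 and 94.6. It had H3K27ac peaks in both E12.0 lists and 1 E13.5 list, and 1 Tead peak. The other, chr9:7960276-7960729, stood at 68.2, 85.1 and 83.6, with no CUT&RUN peak.

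Cdkn1b rose most in RNA among these loci, from 7.70 and 8.59 to 229 and 182 CPM (log2 fold change 4.65 ± 0.30, edgeR adjusted p = 6.09e-06). The promoter printed above, in chr6:134919681-134920846, was in all 6 libraries. By fold its region stood at percentiles 95.9, 93.1 and 90.2 against 86.3, 63.2 and 92.2, which overlap. By −log10 p it stood at percentiles 97.3, 95.2 and 93.2 against 99.96, 99.1 and 99.996, higher at E13.5 with no overlap. A region inside the gene, chr6:134921900-134922638, was called at E13.5 only, but its 3 values were far apart. Its fold was 4.59, 11.1 and 1.72 and its −log10 p 105, 1075 and 8.21. No CUT&RUN peak lay in it. The E13.5 reporter is named for p27, the product of this gene, and how far reporter DNA or RNA adds to the counts at this locus was not tested.

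Lin28b, an RNA-binding repressor of let-7 microRNAs, had a promoter window called at E13.5 only (chr10:45470152-45470451, percentiles 43.0, 15.1 and 24.8). The merged region around that window, chr10:45469552-45470359, was also held by 2 of 3 E12.0 libraries, so the call belongs to the window alone. Lin28b RNA was 135 and 128 against 236 and 202 CPM, a call lost without either E12.0 RNA library. Jag1, a Notch ligand of the prosensory domain, had its promoter in all 6 libraries while its RNA rose from 229 and 169 to 867 and 971 CPM (edgeR adjusted p = 0.000144). All 3 regions within 10 kb of Atoh1, the factor that starts hair cell fate, were held by all 6 libraries. Its RNA was 0.275 and 0.942 against 2.38 and 5.04 CPM (edgeR adjusted p = 0.0387, 0.187 without E12.0 replicate 1 and 0.273 without E13.5 replicate 2).

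**Figure D3:**
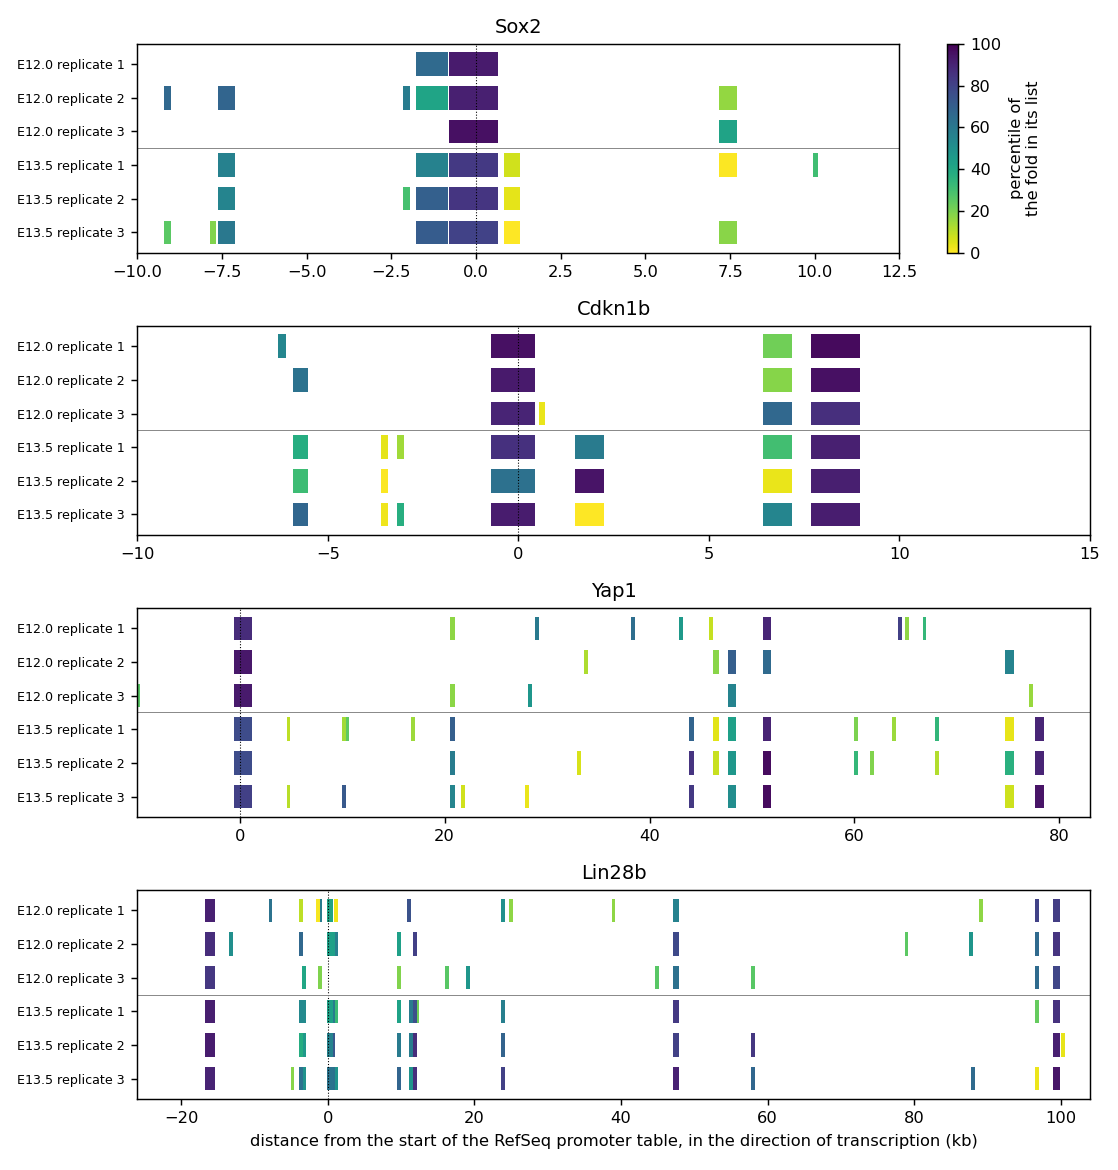
Regions held by each library (rows) around the starts of Sox2, Cdkn1b, Yap1 and Lin28b, by distance from the RefSeq start in the direction of transcription (x axis, kb). The colour is the percentile of the region's fold in that library's list, and narrow regions are widened so that they can be seen. The promoter of Sox2 is held in all 6 rows, at 91.2 to 95.8 in the E12.0 rows and 80.4 to 84.7 in the E13.5 rows.

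Strength was then compared at the 33757 regions held by all 6 libraries. Which regions are shared depends on list length, since the shortest lists set what all 6 hold. The folds of a library were ranked among these regions, the ranks were turned into normal scores, and limma was fitted to 3 against 3 libraries over all of them. A difference of 1 is then 1 SD of ranks within a library. At an adjusted p under 0.05, 2155 regions (6.38%) ranked higher at E13.5 and 1245 (3.69%) lower, and the 6 values did not overlap between stages in 2148 (6.36%) and 1241 (3.68%) of these. The counts were smaller when an E13.5 library was left out: 627 and 117 without replicate 1, 519 and 112 without replicate 2, and 280 and 42 without replicate 3. They were 1835 to 2176 higher and 732 to 1343 lower without 1 E12.0 library, the 732 without replicate 3. A rank is relative, so a region can fall because others rose.

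Promoters were more frequent among the lower-ranked regions and places far from genes among the higher-ranked ones. Of the regions that ranked lower, 45.2% overlapped a promoter window and 4.42% lay over 50 kb from a gene. Of those that ranked higher, 11.1% and 26.9% did, and of those not called 33.6% and 8.82%. Counted by place, 240 of 10994 promoter regions (2.18%) ranked higher and 563 (5.12%) lower, with a median difference of -0.30. Among 12868 other regions inside genes 7.23% ranked higher and 2.84% lower, and among 9895 outside genes 9.95% and 3.20% did, with median differences of 0.02 and 0.10. Over the 37 shared regions assigned to housekeeping genes, promoters or not, the median difference was -0.50, with 4 lower and 1 higher.

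Over all shared regions, those of higher rank had H3K27ac peaks more often in every list. In E12.0 replicates 1 and 2 the mark lay in 64.9% and 42.9% of the higher-ranked regions, in 48.0% and 25.8% of the lower-ranked and in 51.0% and 32.7% of those not called. In E13.5 replicates 1 and 2 it lay in 77.8% and 26.2% of the higher, 65.4% and 11.2% of the lower and 64.3% and 17.0% of the rest. The difference was present in the E12.0 lists as well as in the E13.5 lists. Within promoters only regions with the mark in both E13.5 lists were counted, and the E12.0 lists were not. Of these 2103 regions 2.04% ranked higher and 4.37% lower, near the 2.18% and 5.12% of all promoter regions. Median widths were close, at 843 and 834 bp, against 903 bp for the rest. Outside promoters, 41 of 487 regions with a Tead peak in both E12.0 lists ranked higher (8.42%) and 13 lower (2.67%), near the 8.41% and 2.996% of all 22763 shared regions outside promoters.

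**Figure D4:**
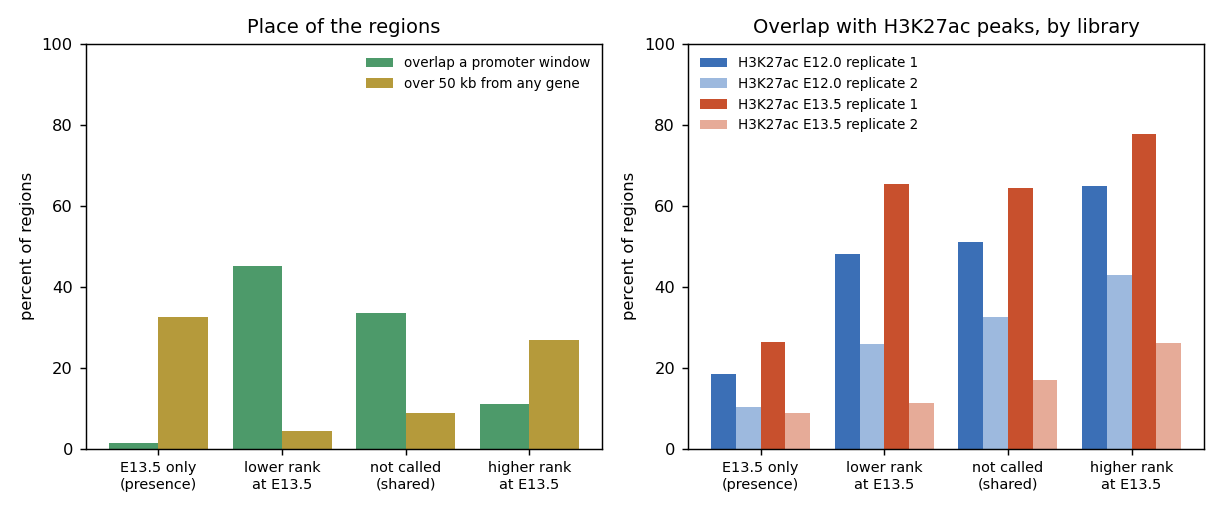
Percent of regions (y axis) in 4 classes: called at E13.5 only by presence, and, among shared regions, of lower, uncalled and higher rank at E13.5. The left panel shows promoter overlap, 45.2% in the lower-ranked and 11.1% in the higher-ranked class, and the share over 50 kb from a gene. The right panel shows overlap with each H3K27ac list, above that of the other classes in the higher-ranked class in each list.

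The region with the largest rise, chr3:40102541-40103245, had no gene within 50 kb. Among the shared regions it stood at percentiles 26.7, 27.98 and 27.4 of the E12.0 libraries, against 99.6, 99.7 and 99.9 at E13.5 (difference 3.52 ± 0.29 SE, limma adjusted p = 0.000347). It had H3K27ac in all 4 lists and 1 Tead peak. Next came chr7:89605750-89606679, 25605 bp from Me3, a mitochondrial malic enzyme, at 49.1, 49.4 and 15.8 against 99.9, 99.5 and 99.96 (3.43 ± 0.35, limma adjusted p = 0.00144). Another lay inside Syt1, a synaptic vesicle calcium sensor, at 13.51, 43.5 and 37.7 against 98.5, 99.1 and 99.7. The promoter of Spef2, a sperm flagellar gene, stood at 3.18, 74.8 and 15.8 against 99.9, 98.96 and 99.04. Of the first 10 rises 5 lay over 50 kb from any gene and 2 overlapped a promoter.

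The largest fall, chr2:22588246-22590548 inside Myo3a, a myosin gene of hair cells, stood at 99.996, 99.998 and 99.998 against 46.1, 51.2 and 49.7 (difference -4.12 ± 0.27, limma adjusted p = 5.86e-05). It had no H3K27ac peak. The E13.5 lists lacked peak numbers, some of them among the first 15, and the E12.0 lists lacked none. The part of this filtering in the largest falls was not tested. A region 5344 bp from Cd209a stood at 99.96, 84.5 and 99.99 against 30.96, 30.04 and 7.81. One inside Il1rapl1 on chromosome X stood at 99.1, 98.6 and 96.0 against 10.5, 12.7 and 6.66, and one inside Jarid2, a Polycomb partner, at 99.98, 96.5 and 99.8 against 20.4, 49.2 and 14.6. The Jarid2 region had H3K27ac in both E12.0 lists and no E13.5 list, and Tead in both. A promoter region of Mecr fell within the lower ranks, from 41.1, 42.6 and 35.4 to 1.16, 4.23 and 0.0222, while Mecr RNA was 18.1 against 35.9 CPM (edgeR adjusted p = 0.0332).

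**Figure D5:**
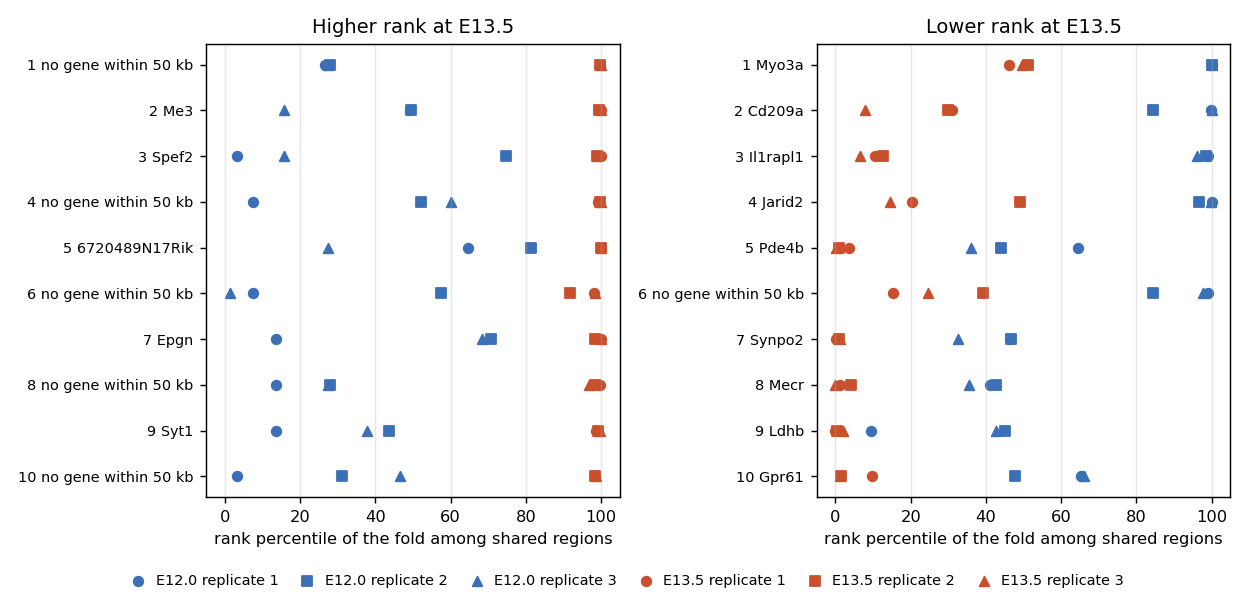
Rank percentile of the fold among shared regions (x axis) in each ATAC library (points) for the 10 largest rises and 10 largest falls at E13.5, named by gene. E12.0 libraries are blue and E13.5 libraries orange; the rises end at 91.7 or above in each E13.5 library, and several falls start from the highest ranks, such as the Myo3a region.

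At the fixed loci the rank calls were smaller and less stable than these. The differences were -1.13 for the Sox2 promoter region (limma adjusted p = 0.0334), -1.22 for that of Yap1 (0.023), -1.12 for that of Ccn1 (0.0327) and -0.97 for that of Ccn2 (0.0458). Ccn1 and Ccn2 encode matricellular proteins and are Yap targets, and their RNA gave no call. A second Ccn2 region, chr10:24590365-24591043, ranked higher by 1.42 (0.0299), and a distal Hmga2 region, chr10:120377186-120377852, by 1.32 (0.0276). A Ccnd1 region, chr7:144941129-144941916, had a difference of -1.11 (0.0352). The largest difference was 1.58 (0.0356), at chr7:45234744-45235806, within 10 kb of Tead2 and inside Cd37. Each of these 8 calls was lost without at least 2 of the 3 E13.5 libraries, and those of Sox2, Yap1, Ccn1, Ccnd1 and the Ccn2 promoter also with ranks of −log10 p. Across the alternatives the adjusted p reached 0.153 for Sox2 and 0.0989 for Yap1, with the same sign in all.

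Between genes grouped by rank call, the share with lower RNA differed more than the share with higher RNA. Of 890 genes with a lower-ranked and no higher-ranked region, 21.2% had higher and 27.6% lower RNA at E13.5. Of 919 genes with a higher-ranked and no lower-ranked region, 23.2% had higher and 18.1% lower RNA. Of the 9396 genes with shared regions and no rank call the shares were 23.0 and 21.1%. The median gene span was 29.9, 89.5 and 24.6 kb in these groups in turn, and its part in the shares was not tested. Yap1 and Ccnd1, whose RNA fell from 1132 and 1137 to 351 and 350 CPM (edgeR adjusted p = 0.000389), had a lower-ranked region and lower RNA. Sox2, with a lower-ranked promoter and higher RNA, and Hmga2, with a higher-ranked distal region and RNA that fell from 2146 and 1910 to 504 and 540 CPM, had rank and RNA in opposite directions.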

How the data were processed

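ATAC-seq peaks were deposited as 1 list per library, called with MACS2 per the submitters' processing notes, which name the builds GRCm38 and mm10 and no version. Each peak carries the authors' fold (a ratio over local background), −log10 p and −log10 q, and a deposited score that was not used. The authors' filters differed by stage. H3K27ac and Tead CUT&RUN lists, deposited by the authors with the same columns, served for overlaps only. The RNA tables deposited by the authors hold expected counts per gene, rounded here.

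Intervals were merged and overlaps of 1 bp or more counted, in Python with pandas. A promoter is a RefSeq GRCm38.p6 window. Regions were assigned to the protein-coding gene they overlapped, otherwise to the nearest within 50 kb. Spans, not exons or introns, were used. Ranks were fitted with limma 3.58.1 (moderated test, 3 against 3, no covariate) and RNA with edgeR 4.0.16 (quasi-likelihood test, TMM, filterByExpr, 2 against 2) in R 4.3.3, both with Benjamini-Hochberg adjustment at 0.05. DESeq2 1.42.0 was an alternative. The steps were tested on simulated data and made-up intervals. Symbols matched 48349 of 48709 identifiers.

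Regions and genes named were the 10 strongest called at each stage, the 10 largest rank changes each way, 16 fixed loci, up to 3 members of a list by number of called regions, and the 5 largest RNA changes each way among promoters open at 1 stage. Fgf9, Cdk1 and others come from these list members. The members and lists were chosen with earlier results of these data known. Chromosome Y and unplaced contigs were left out, and no motif was sought outside promoter windows.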

Additional observations from a re-analysis of the deposited data

Results flagged for a closer look

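Peaks outside the chromosomes compared were present in the ATAC lists. On unplaced contigs the E12.0 lists held 90, 75 and 58 peaks in replicates 1 to 3, and the E13.5 lists none. On chromosome Y the E12.0 lists held 11, 21 and 15 peaks and the E13.5 lists 24, 22 and 22. All these counts but the E13.5 contig counts are above the 3 that a count of 0 allows. That limit only sets them apart from 0 and gives no expected number of such peaks. The counts have no control sample to be set against.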

How the results depend on the processing

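Of the counts and library values reported, 77 of 106 alternative values kept their direction and their side of the threshold or moved less than 1.5 times. The 77 include region counts under overlap by part of the shorter interval, which could not change by construction. The promoter share of peaks, -0.84 percentage points at E13.5 against E12.0, turned to 6.60 with equal-length lists. Regions called at E13.5 only (22137) were 6933 with equal-length lists, and, in settings chosen after seeing the data, 865, 1533 and 3050 with the strongest 10000, 20000 and 50000 peaks, and 24925 to 36374 with 1 library left out. Regions called at E12.0 only (156) were 479 with equal-length lists, 63 at −log10 q of 2 or more, 686, 833 and 1110 with the strongest 10000, 20000 and 50000 peaks, and 205 to 1253 with 1 library left out. The rise of the counts of either stage with 1 library left out follows at least in part from a rule that is then easier to pass. Regions in all 6 libraries (33757) were 4053, 8535 and 18302 with those numbers of peaks and 13549 where a library had to cover most of the region. Higher-ranked regions (2155) were 111 among the 5442 regions with 1 peak in every library and 280 to 2176 with 1 library left out. Lower-ranked regions (1245) were 36 among those 5442, 740 with regions built from summits and 42 to 1343 with 1 library left out; the share of calls that were higher was 63.4%, 75.5% with 1 peak in every library and up to 87.0% without an E13.5 library. Of 80 alternative values of the class shares with a promoter or H3K27ac, 70 moved beyond the counting interval. The other 10 came from overlap by part of the shorter interval, a rule that leaves these calls unchanged by construction. Each share thus moved in every setting that could change it. The 26.4% of E13.5-only regions with H3K27ac in E13.5 replicate 1 became 29.6 to 85.5% in those settings. Genes higher in RNA (3579) were 2341 to 2751 and lower (3761) 2910 to 3299 with 1 library left out.

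Among single regions, ranks of −log10 p reversed the Cdkn1b promoter region (-1.13 to 1.62) and the region past that gene (-0.62 to 1.62), and a pair of uncalled regions at Tead3 (to 0.17 and 0.15; the former lay between -0.47 and 0.14 with 1 library left out). The uncalled Atoh1 region (0.04) became -0.034 with percentile ranks and lay between -0.23 and 0.16 with 1 library left out. In RNA with 1 library left out, log2 fold changes lay between -0.36 and 1.55 for Tead3, -1.57 and 0.30 for Tead4 and -0.27 and 0.43 for Ccn2, all uncalled, and between -5.08 and 2.26 for Rnase1. The causes were not tested. A region split by a stricter or summit definition was read at its piece with the smallest p.

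Same-numbered ATAC libraries did not deviate together (correlations -0.0969, -0.0641 and -0.00903). With 3 libraries per stage such values cannot exclude a shared preparation, and the main fits used no pairing. With a replicate block 2149 regions ranked higher and 994 lower, and 3440 genes were higher and 3698 lower in RNA. Overlap by 50% of the shorter interval gave the same calls by construction, and leaving out regions at missing peak numbers was not run, since the numbers give no position. The number of sequenced fragments behind a peak list is unknown.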
